A study of Mus musculus with 54 samples.

Results

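Toll-like receptors are sentinel proteins with which innate immune cells, microglia among them, detect microbial molecules and molecules released by damaged cells. Described here are 10 genes: the receptors Tlr1, Tlr2, Tlr3, Tlr4, Tlr6, Tlr7, Tlr9 and Tlr13, and Cd14 and Ly96, whose products present ligand to them. They were chosen by symbol as candidate sensors of alpha-synuclein (aSyn), the protein that aggregates in Parkinson's disease. Earlier results of these data were known when they were chosen, and some other Toll-like receptor genes lie outside the 10. The 10 genes are among the 16632 in the count table, and all 10 passed the filter on low counts that left 13169 genes for testing.

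The RNA came from primary microglia of neonatal C57BL/6 mice, grown in flasks that each pooled cells of 2 brains, in medium with L929 cell supernatant, and shaken off the underlying astrocytes. Every group shares this background, so all values describe cultured neonatal cells. Untreated microglia gave 6 libraries, in which 2 pairs carry the same experiment number and were each summed to 1 unit, and microglia exposed to 1 µM aSyn labelled with the dye Atto-488 for 14 h gave 4 libraries (aSyn-treated). For the co-cultures, donors were loaded with aSyn in the same way, acceptors received only CellTracer Violet for 15 min, and both were mixed and then separated again by flow cytometry. Each of these groups holds 4 libraries, except 3 for donors at 0 and 60 min and 3 for acceptors at 0 and 300 min. The 0 min groups carry that time in their titles, whereas the treatment protocol lists times from 15 to 300 min. The labels do not state whether untreated and aSyn-treated cells were dyed or sorted, nor whether experiments used separate litters. The p-values therefore do not measure a spread between litters. Those of fits without the experiment as a term measure the spread between these experiments. The libraries were read near the 3′ end of each transcript.

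The resulting 52 units fall into 14 groups and 4 numbered experiments. The labels give passage 3, 1, 2 and 2 for experiments 1 to 4, so passage and experiment cannot be told apart. Library totals ranged from 7807389 to 15537493 counts (median 13036175.5). Experiment 4 carries separate facility numbers, is absent at 0 min and held more of the ribosomal RNA precursor Rn45s, 13.4 to 22.1% of counts against 1.42 to 13.5% in experiments 1 to 3. All 10 microglial markers looked up, among them Csf1r, C1qa and Cx3cr1, had counts in every unit. Markers of other brain cells were also present at low and uneven levels, and are given beside the results they move with. In bulk RNA, fewer cells of a type and less RNA per cell cannot be told apart.

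As background, TLR2 sits at the cell surface and binds bacterial lipoproteins as a heterodimer with TLR1 or with TLR6. TLR4 recognises lipopolysaccharide with the help of CD14, which delivers the lipid, and MD-2, the product of Ly96, which binds it. TLR3, TLR7, TLR9 and TLR13 signal from endosomes after binding double-stranded RNA, single-stranded RNA, CpG DNA and bacterial ribosomal RNA, respectively. Most of these receptors signal through the adaptor MyD88 to NF-kB and to inflammatory cytokine genes, whereas TLR3 uses the adaptor TRIF. In microglia, TLR2 and TLR4 have been studied as receptors of aggregated aSyn.

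In the mouse genome (build GRCm38), Tlr1 lies at chr5:64924679-64933563 and Tlr6 at chr5:64952031-64960097, both on the minus strand, 18467 bp apart with 0 annotated genes between them. Tlr2 lies on the minus strand at chr3:83836272-83841767 and Tlr4 on the plus strand at chr4:66827584-66930284. Ly96 is at chr1:16688051-16709611 (plus), Tlr3 at chr8:45395665-45411080 (minus), Tlr9 at chr9:106222598-106226883 (plus), and Tlr7 and Tlr13 are on chromosome X, at chrX:167304929-167330558 (minus) and chrX:106143204-106160493 (plus). Because Tlr1 and Tlr6 are close relatives, their transcripts were compared in stretches of 50 bases: 454 of the 3071 stretches of Tlr1 (14.8%) also occur in Tlr6. In the last 500 bases, near which these libraries are read, 0 of 452 stretches of Tlr1 and 2 of 848 of Tlr6 are found in another gene.

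The bases before the starts of Tlr1, Tlr6 and Tlr2 are shown because Tlr1 and Tlr6 moved together in the data and Tlr2 did not follow them. They are the 250 bases before a RefSeq start (GRCm38.p6, minus strand, written 5′ to 3′ along the gene), at chr5:64933559-64933808 for Tlr1, chr5:64959167-64959416 for Tlr6 and chr3:83841609-83841858 for Tlr2. Tlr1 and Tlr6 each have a further start in the table, at chr5:64932700-64932949 and chr5:64960049-64960298, not shown because these windows hold 0 matches to the 4 motifs searched, so the windows printed were picked for their matches. The Tlr6 window shown lies inside the gene span given above, and the one not shown at its annotated start. Capitals mark matches to a motif searched on both strands: GAGGAA, the core bound by the myeloid factor PU.1, in Tlr1, the interferon-stimulated response element in Tlr6, and the NF-kB motif in Tlr2.
Tlr1: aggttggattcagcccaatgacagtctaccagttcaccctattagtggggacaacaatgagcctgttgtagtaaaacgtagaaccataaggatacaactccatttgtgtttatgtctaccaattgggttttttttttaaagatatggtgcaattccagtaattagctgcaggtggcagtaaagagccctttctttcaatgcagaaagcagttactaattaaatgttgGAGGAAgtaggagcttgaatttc
Tlr6: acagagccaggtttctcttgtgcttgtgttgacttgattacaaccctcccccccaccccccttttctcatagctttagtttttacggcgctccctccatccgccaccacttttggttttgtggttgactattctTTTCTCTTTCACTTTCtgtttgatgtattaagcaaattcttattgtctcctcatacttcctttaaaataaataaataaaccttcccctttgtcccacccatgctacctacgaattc
Tlr2: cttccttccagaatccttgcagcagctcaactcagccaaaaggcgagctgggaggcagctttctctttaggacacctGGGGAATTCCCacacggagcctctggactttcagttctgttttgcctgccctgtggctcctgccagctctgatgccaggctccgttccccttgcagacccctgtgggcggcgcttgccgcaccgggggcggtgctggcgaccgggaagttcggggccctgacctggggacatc
The Tlr1 match spans 23 to 18 bases before the start. Tlr6 holds 2 overlapping interferon-element matches on the opposite strand, together 116 to 101 bases before it. Tlr2 holds 2 overlapping NF-kB matches, together 173 to 163 bases before it. Of the same windows at 32851 starts, 23.3% hold the PU.1 core, 2.98% the interferon element and 7.25% the NF-kB motif, and the AP-1 motif TGANTCA, found in 6.75%, is in none of the 3 windows shown. Of the other members with an entry, Tlr3 holds an NF-kB match, Tlr13 the PU.1 core, and Tlr9 the PU.1 core and the AP-1 motif. None of these windows holds the interferon element. A match is a stretch of letters and was not tested as a binding site, nor against the patterns of expression.

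Levels are given as CPM, counts scaled to a common library total, and differences as log2 fold changes from edgeR's quasi-likelihood test. A gene counts as called when its p-value, adjusted over all 13169 genes by the method of Benjamini and Hochberg, is under 0.05. Units with the same experiment number deviated together, so each comparison is given without and with the experiment as a block. The p-values with the block measure the spread left after mean differences between experiments are removed, pooled over the 14 groups. Groups of 1 experiment share its cells, so this spread can be smaller than that of the response between experiments. Of 190 pairings of a gene with a pairwise comparison, 1 was called without the block and 15 with it. Over the 19 comparisons the share of all genes called ran from 0 to 2.5% without the block and from 0 to 19.2% with it. The share of each comparison is given beside its member calls below. All 15 kept their direction when an experiment was left out, but 6 to 12 of them kept the call, and in blocked fits of only the groups compared 0 of the 15 did.

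Tlr1, Tlr6, Tlr2 and Cd14, whose products act at the cell surface, split into 2 patterns. The group means of Tlr1 and Tlr6 were lower in untreated cells and in every acceptor group than in any group that had received aSyn. Tlr2 and Cd14 had their lowest means in untreated cells and acceptors at 0 min, and their highest included acceptors at 150 min. Tlr1 group means ranged 5.73-fold, from 14.3 ± 9.51 CPM in acceptors at 60 min to 81.9 ± 49.4 in donors at 300 min (SD, n = 4 each). Tlr6 ranged 3.63-fold, from 3.03 ± 0.108 to 11.0 ± 3.87 CPM in the same groups. Cd14 ranged 2.28-fold, from 767 CPM in untreated cells (409 to 925) to 1750 in acceptors at 150 min (1350 to 2560), and Tlr2 2.19-fold, from 73 ± 24.4 in acceptors at 0 min (n = 3) to 160 ± 51.5 in donors at 60 min (n = 3). These 2 Tlr2 means cover different experiments. Donors at 60 min lack experiment 2, where Tlr2 averaged 68.1 CPM against 111 to 164 in the others, and acceptors at 0 min lack experiment 4. Neighbouring means in these orders differed by less than the smaller of their SDs, except acceptors at 60 and 30 min in Tlr6 and untreated cells and acceptors at 0 min in Cd14. The group accounted for 59.2% of the variance of log2 CPM in Tlr1 and 62.2% in Tlr6, and for 34.9% in Tlr2, where the experiment held 48.4%.

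**Figure D1:**
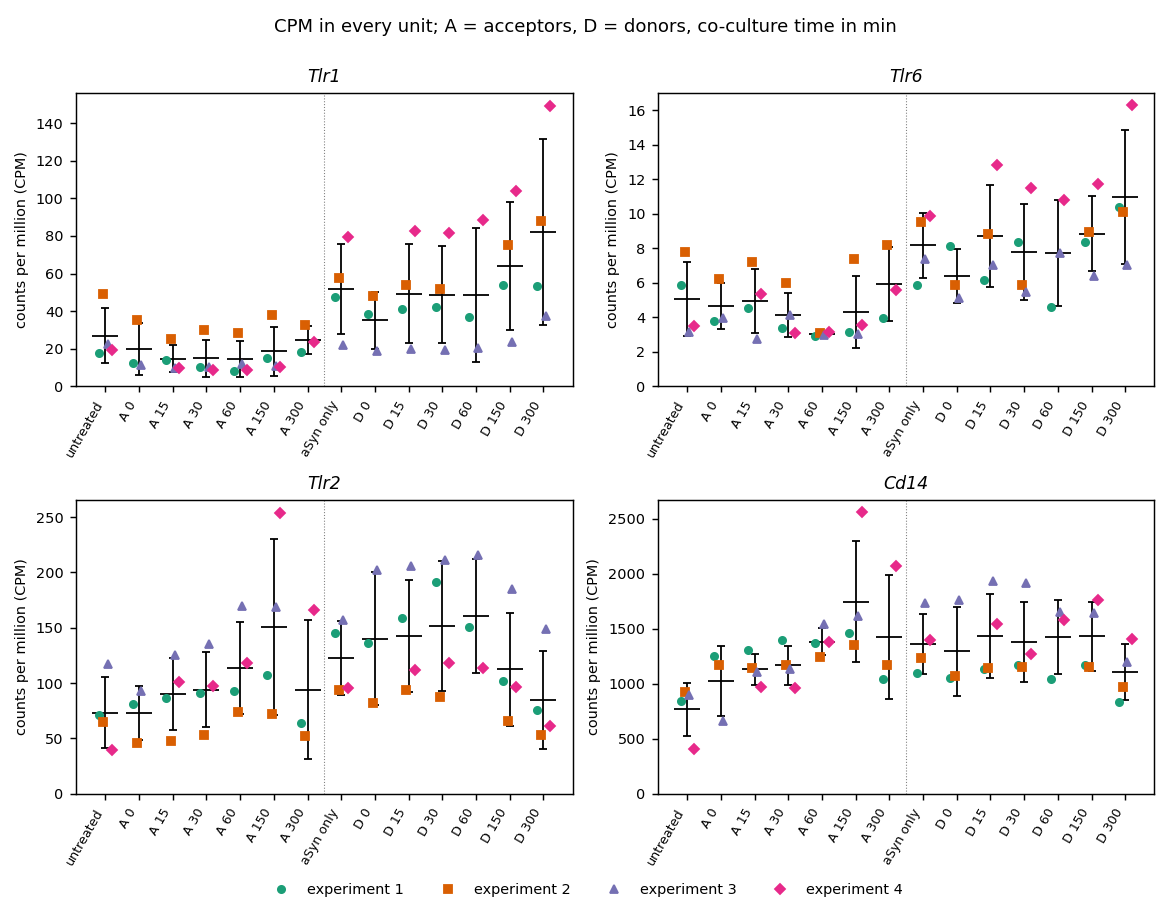
CPM of Tlr1, Tlr6, Tlr2 and Cd14 in every unit (vertical axis) by group (horizontal axis), with the symbol giving the experiment and the lines the mean ± SD over 3 or 4 units. Tlr1 units of aSyn-treated cells and donors reach 149 CPM while acceptors stay at or under 38.1, and the highest Tlr2 and Cd14 units are the acceptor library of experiment 4 at 150 min.

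TLR1 is the partner with which TLR2 binds triacylated lipoproteins. In untreated cells of experiments 1 to 4, Tlr1 was at 17.5, 48.9, 22.3 and 19.2 CPM, and in aSyn-treated cells at 47.4, 57.6, 22.2 and 79.5. Experiments 1 and 4 differed widely, experiment 2 was already high without aSyn, and experiment 3 did not differ, so the groups overlapped. The log2 fold change was 0.93 (standard error 0.56, edgeR adjusted p = 0.399), and with the block 0.89 (SE 0.35, adjusted p = 0.0681). TLR6, the partner for diacylated lipoproteins, was measured at 5.85, 7.76, 3.17 and 3.51 CPM in untreated and 5.89, 9.52, 7.40 and 9.86 in aSyn-treated cells. The aSyn-treated value was higher in 4 of 4 experiments, by 0.01 to 1.45 on the log2 scale, yet the groups overlapped. The test gave 0.68 (standard error 0.33, edgeR adjusted p = 0.28), and with the block 0.70 (SE 0.27, adjusted p = 0.061).

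Tlr2 was at 71, 65.2, 117 and 39.5 CPM in untreated cells and at 145, 93.5, 157 and 95.3 in aSyn-treated cells. It was higher with aSyn in 4 of 4 experiments, by 0.42 to 1.27 on the log2 scale, with overlap between groups because experiment 3 was high in both. Without the block it was not called (0.75, standard error 0.42, edgeR adjusted p = 0.361), and with it Tlr2 rose by 0.76 (SE 0.24, adjusted p = 0.0251). Leaving out experiment 1 or experiment 3 ended the blocked call, with adjusted p = 0.116 and 0.0789. Without experiment 4 it was 0.66 (SE 0.14, adjusted p = 0.00195).

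Cd14 lies on chromosome 18, and its product hands lipopolysaccharide to TLR4 and also serves TLR2. It was at 840, 925, 894 and 409 CPM in untreated and at 1100, 1230, 1730 and 1400 in aSyn-treated cells. The groups did not overlap, and the untreated unit of experiment 4 was the lowest of all 52. Without the block Cd14 was just outside the threshold (0.83, standard error 0.26, edgeR adjusted p = 0.0716), and with it Cd14 rose by 0.79 (SE 0.23, adjusted p = 0.0135). The blocked value without experiment 4 was 0.59 (SE 0.21, adjusted p = 0.0575), and without experiment 3 it was 0.74 (SE 0.26, adjusted p = 0.0663). Tlr4, the signalling receptor, was at 125, 195, 113 and 112 CPM in untreated and 127, 151, 119 and 123 in aSyn-treated cells. Its log2 fold change was -0.07 (standard error 0.16, edgeR adjusted p = 0.869), and its sign changed without experiment 2, where the untreated unit was high. Ly96 was at 20.7, 23.0, 17.3 and 12.4 CPM in untreated and 22, 21.7, 27.7 and 23.2 in aSyn-treated cells, a log2 fold change of 0.37 (standard error 0.21, edgeR adjusted p = 0.377) and 0.38 with the block (SE 0.15, adjusted p = 0.0665).

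None of the endosomal receptor genes was called in aSyn-treated cells. Tlr3 was at 16.0, 58.7, 20.2 and 9.99 CPM in untreated and 19.1, 18.0, 18.6 and 23.0 in aSyn-treated cells, so that untreated units spread widely and aSyn-treated units hardly. Its log2 fold change of -0.42 (standard error 0.36, edgeR adjusted p = 0.594) rested on experiment 2 and was 0.42 without it. Tlr7 was at 163, 253.8, 178 and 93.6 CPM in untreated and 165, 143, 137 and 104 in aSyn-treated cells (-0.33, standard error 0.25, edgeR adjusted p = 0.542). Tlr13, a receptor found in mice and not in humans, was at 136, 144, 131 and 174 CPM in untreated and 145, 165, 178 and 151 in aSyn-treated cells (0.13, standard error 0.16, edgeR adjusted p = 0.745). Tlr9 had 2 to 36 counts in untreated units and 2 to 20 in aSyn-treated ones, a depth at which no difference was detectable. Over the series Tlr9 had 0 to 36 counts a unit.

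Over the 10 genes, aSyn-treated against untreated cells gave 0 calls without the block, where 2.5% of all genes tested were called, and 2 calls with it, where 19.2% were. The share of the family called with the block is thus close to that of all genes. The members' median log2 fold change was 0.25 without and 0.26 with the block, beside -0.04 and -0.05 over all genes. With the block, 5 of 6 tested astrocyte markers and 3 of 6 oligodendrocyte-lineage markers were lower in aSyn-treated cells, and the summed astrocyte CPM was 4.90 to 27.1 against 5.45 to 131 in untreated units. Among 10 microglial markers, Tmem119 was higher and Cx3cr1 lower with the block, and the endothelial marker Pecam1 (at most 39 counts) and the neutrophil marker Camp (at most 12 counts, 0 in 33 units) were higher. The neutrophil and T-cell markers Ly6g and Trac are not among the genes of the table. The part of these cells in the receptor values was not tested.

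**Figure D2:**
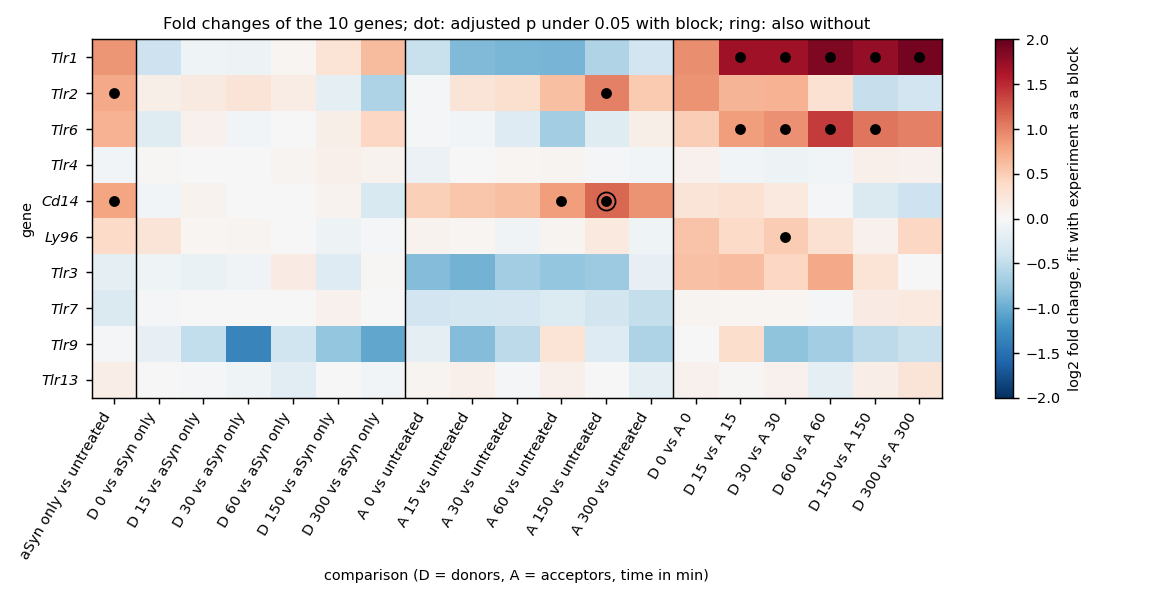
Log2 fold changes of the 10 genes (vertical axis) in the 19 pairwise comparisons (horizontal axis), from the fit with the experiment as a block, in colour from -2 to 2. Dots mark the 15 calls with the block and the ring the 1 call also made without it, Cd14 in acceptors at 150 min, and the dots of Tlr1 and Tlr6 lie in the comparisons of donors with acceptors.

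The aSyn comparison was also read across the pathway around the receptors, in 9 lists that hold 93 genes, of which 90 are in the table and 86 were tested. The counts stand beside the shares of all genes called in this comparison, 2.5% without and 19.2% with the block. With the block 4 of 12 folding genes, 4 of 19 kinases, 2 of 6 adaptors, 3 of 10 transcription factors, 1 of 3 co-receptors and 1 of 6 ligands were called, and with so few genes a list nothing is read from these counts. Of the 15 tested genes that TLR signalling induces, 3 were called without the block, all higher: the chemokine genes Cxcl1 and Cxcl2 and Acod1, the enzyme that makes itaconate. Cxcl2 averaged 432 CPM with aSyn (highest 784) and 49.1 without (highest 82.5) (log2 difference 3.14, standard error 0.67, edgeR adjusted p = 0.00462). Cxcl1 was 29.5 ± 28.3 against 1.92 ± 1.38 CPM (3.99, standard error 1.01, edgeR adjusted p = 0.0209), and Acod1 537 ± 554 against 37.3 ± 39.9 (3.84, standard error 0.96, edgeR adjusted p = 0.0198). With the block 10 of the 15 were called higher, among them Il1b, Il6 and Nos2, and 1, the chemokine gene Ccl4, lower (-1.36, adjusted p = 0.000841). Il6 averaged 2.41 ± 4.62 CPM with aSyn (0 to 9.34) and was at most 0.0754 without. Nos2 averaged 16.1 ± 27.6 CPM (0.663 to 57.5) against at most 0.514, and Il1b 804 ± 1210 (99.7 to 2620) against at most 65.3. For each of these genes the SD with aSyn exceeded the mean, which leaned on the highest of 4 units. Tnf was not called (with the block -0.07, SE 0.32, adjusted p = 0.903), nor were Cxcl10, Ccl3 and Ifnb1.

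Of 13 negative regulators of the pathway, 3 were higher without the block and 6 higher and 1 lower with it. Over all genes the shares called were 2.5% without and 19.2% with the block. Tnip1, which works with the ubiquitin editor A20 (Tnfaip3), had a log2 fold change of 1.15 (standard error 0.32, edgeR adjusted p = 0.0384). Zc3h12a, the RNase Regnase that degrades cytokine transcripts, had 1.17 (standard error 0.32, edgeR adjusted p = 0.0385), and the phosphatase gene Dusp1 1.36 (standard error 0.33, edgeR adjusted p = 0.0178). The gene lower with the block was Il1rl1, the interleukin-33 receptor (-3.01, adjusted p = 0.0011). Among 12 genes of receptor folding and processing, the lysosomal protease gene Ctsl rose from 543 ± 54 CPM to 923 ± 150 (SD, n = 4), by 0.77 on the log2 scale (standard error 0.17, edgeR adjusted p = 0.00595). With the block this list had 2 higher (Ctsl, Ctsk) and 2 lower (Nrros, Slc15a4). Of 6 endogenous ligands Hmgb1, a nuclear protein released from damaged cells, was lower, at 83.7 ± 10.7 against 134 ± 21.5 CPM (-0.68, standard error 0.17, edgeR adjusted p = 0.0176).

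The remaining lists had 0 calls without the block. The counts with the block stand beside the 19.2% of all genes called in that fit. There, 2 of 6 adaptors were higher, Ticam2 (0.66, SE 0.18, adjusted p = 0.0078) and Myd88 (0.49, SE 0.16, adjusted p = 0.0291). Of 19 kinases and ubiquitin ligases 3 were higher and 1 lower, led by the kinase gene Ikbke (1.34, SE 0.22, adjusted p = 4.22e-05). Of 10 transcription factors 3 were higher, led without the block by the NF-kB subunit gene Nfkb2 (0.64, standard error 0.22, edgeR adjusted p = 0.107). Of 3 tested co-receptors or carriers, Cd180, a TLR4-like surface protein, was lower with the block (-1.02, SE 0.25, adjusted p = 0.00311). Of the other Toll-like receptor genes, Tlr8 was at 37.4 ± 6.63 CPM in aSyn-treated and 36.3 ± 8.57 in untreated cells, and Tlr12 at 0.996 ± 0.865 and 0.562 ± 0.818, with Tlr12 the smaller p of this list (0.76, standard error 1.07, edgeR adjusted p = 0.771).

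The clearest separation of the family was between donors and acceptors of the same co-culture. Tlr1 was higher in donors in 21 of 21 same-numbered pairs, by 0.44 to 3.32 on the log2 scale (median 1.55). Tlr6 was higher in 19 of 21 (median 1.08, from -0.07 to 1.85) and Ly96 in 20 of 21 (median 0.34, from -0.11 to 1.01). Tlr4 was higher in 11 and Tlr13 in 13 of 21. The 6 comparisons use different libraries, but all times of an experiment share its cells, so pairs of 1 experiment are not independent.

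At 15 min Tlr1 was at 40.9, 54, 19.7 and 82.8 CPM in donors of experiments 1 to 4 and at 13.9, 24.9, 9.90 and 9.57 in their acceptors. The log2 differences within experiments were 1.55, 1.11, 0.98 and 3.09, and the donor unit of experiment 3 lay under the acceptor unit of experiment 2. At 300 min donors were at 53.2, 88.2, 37.4 and 149 CPM, and acceptors of experiments 1, 2 and 4 at 18.0, 32.8 and 23.5, without overlap. With the block Tlr1 was called higher in donors at 15 min (1.69, SE 0.36, adjusted p = 0.00203), 30 min (1.69, SE 0.36, adjusted p = 0.00184), 60 min (1.86, SE 0.39, adjusted p = 0.00219), 150 min (1.76, SE 0.36, adjusted p = 0.00208) and 300 min (1.91, SE 0.40, adjusted p = 0.00612). It was called at none of the 6 times without the block. Experiment 4 had the largest differences, 2.66 to 3.32, and without it the blocked values were 1.23 to 1.55 at these 5 times, still called, as was 0 min (0.91, adjusted p = 0.0121). Leaving out experiment 1 ended the blocked call at 60, 150 and 300 min (adjusted p = 0.0639, 0.053 and 0.109), and leaving out experiment 2 that at 300 min (0.0808).

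Tlr6 at 60 min was at 4.61, 7.74 and 10.8 CPM in donors of experiments 1, 3 and 4 and at 2.90, 3.08, 2.98 and 3.15 in acceptors of experiments 1 to 4. The acceptor units were nearly equal, all under the lowest donor unit, and rest on 34 to 41 counts each. With the block Tlr6 was called higher in donors at 15 min (0.84, SE 0.27, adjusted p = 0.0425), 30 min (0.91, SE 0.27, adjusted p = 0.0252), 60 min (1.40, SE 0.30, adjusted p = 0.00274) and 150 min (1.07, SE 0.27, adjusted p = 0.0145). Without experiment 4 only the 60 min call remained (1.23, SE 0.33, adjusted p = 0.0267). Leaving out experiment 1 ended the blocked Tlr6 calls at 15, 30 and 150 min, and leaving out experiment 3 ended all 4. Ly96 was called at 30 min only (0.51, SE 0.15, adjusted p = 0.0236), with donors at 22.3, 21.9, 27.8 and 25.6 CPM and acceptors at 18.2, 17.3, 21.9 and 12.6. Without experiment 4 its value was 0.33 (SE 0.17, adjusted p = 0.229), and without experiments 2 or 3 the adjusted p was 0.0518 and 0.0505. At 0 min Ly96 was at 27.4 to 31.6 CPM in donors and 16.5 to 25.2 in acceptors. There it was called by the blocked fit without experiment 4 (0.57, adjusted p = 0.0214) and by blocked DESeq2 (0.56, adjusted p = 0.0383).

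**Figure D3:**
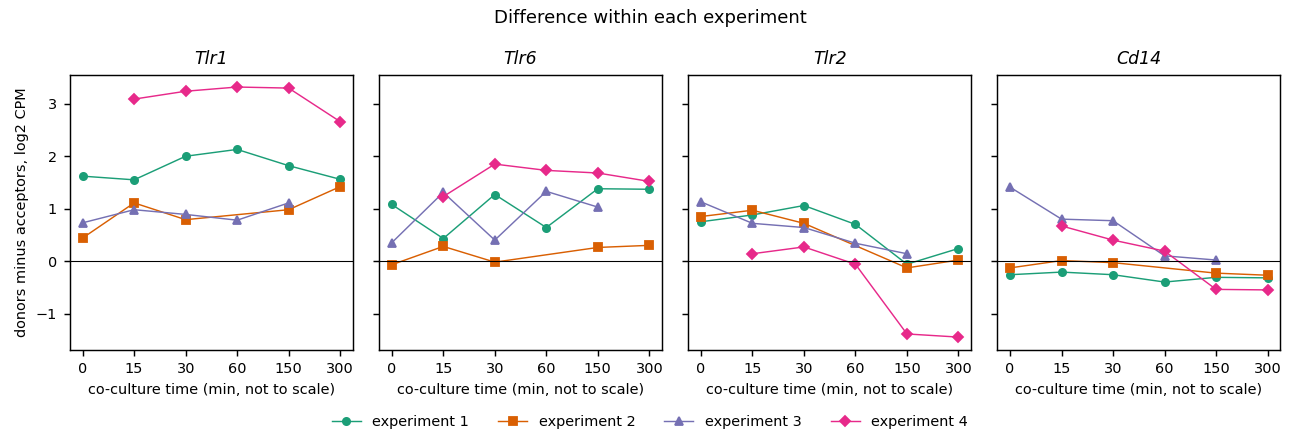
Difference between donors and acceptors of the same experiment in log2 CPM (vertical axis) by co-culture time in min (horizontal axis, not to scale) for Tlr1, Tlr6, Tlr2 and Cd14, 1 line an experiment. All Tlr1 points lie above 0, whereas Tlr2 and Cd14 of experiment 4 lie above 0 at 15 min and below 0 at 150 and 300 min.

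Tlr2 took another course. Donors exceeded acceptors in 3 of 3 experiments at 0 min, 4 of 4 at 15 and 30 min, 2 of 3 at 60 min, 1 of 4 at 150 min and 2 of 3 at 300 min, where the median difference was 0.02. At 30 min donors were at 191, 87.1, 211 and 118 CPM and acceptors at 91.4, 52.8, 135 and 97.6. At 150 min donors were at 102, 66.1, 185 and 96.8 CPM and acceptors at 107, 72.5, 169 and 254.4, so that experiment 4 alone set them far apart. Tlr2 was not called at any of these times (with the block 0.70, SE 0.24, adjusted p = 0.0569 at 30 min and -0.46, SE 0.24, adjusted p = 0.287 at 150 min). Without experiment 4 the blocked fit called it higher in donors at 0 min (0.92, adjusted p = 5.72e-05), 15 min (0.87, adjusted p = 0.000133) and 30 min (0.83, adjusted p = 0.000211). Blocked DESeq2 also called these 3 times (adjusted p = 0.0294, 0.0417 and 0.0339), and the blocked fit of only the groups compared called 0 min (0.0089). Cd14 differed in sign between experiments: at 30 min donors were at 1170, 1150, 1920 and 1270 CPM and acceptors at 1400, 1170, 1130 and 964 (with the block 0.20, SE 0.23, adjusted p = 0.632).

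Without the block, donors against acceptors gave 0 calls among the 10 genes at each of 0, 15, 30, 60, 150 and 300 min, where 0.251, 0.888, 0.805, 0.418, 0.167 and 0.0304% of all genes were called. With the block the members called were 0, 2, 3, 2, 2 and 1 of 10, and the shares of all genes 4.28, 9.57, 10.8, 6.7, 5.19 and 1.38%. The members' blocked median log2 fold changes were 0.38, 0.36, 0.31, 0.14, 0.12 and 0.13, and those of all genes between -0.04 and -0.01. Beside these calls, summed astrocyte markers were 4.20 to 29.0 CPM in donors and 3.22 to 36.5 in acceptors, and 0 of 6 were called. Pecam1 was higher in donors at 15 and 30 min in both fits, and with the block Sall1 was lower at 15 min and Tmem119 higher at 30 min. The part of these cells in the receptor values was not tested.

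In the same comparison, 0 of 15 induced targets were called without the block at any time. With the block 5, 9, 11, 5, 4 and 2 of 15 were higher in donors at the 6 times, and 1 was lower at 15 and at 30 min. The shares of all genes called there were 4.28, 9.57, 10.8, 6.7, 5.19 and 1.38%. The adaptor gene Ticam2, which links TLR4 to TRIF, was called higher with the block at 0, 15, 30, 150 and 300 min, with log2 fold changes of 0.80, 0.65, 0.59, 0.63 and 0.98 (adjusted p between 0.00573 and 0.0318), and Myd88 at 60 min (0.56, adjusted p = 0.0414). Tlr12, at a median of 0.59 CPM over all units, was called at 15 min in both fits and at 60 min with the block. It had 0 counts in 9 libraries, and its fitted fold change is not given.

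Acceptors, which had received no aSyn directly, were compared with untreated cells, and all 6 comparisons share the 4 untreated units with the aSyn comparison. Cd14 was higher than in the untreated unit of the same experiment in 21 of 22 pairs, by up to 2.65 on the log2 scale (lowest -0.43, median 0.61). At 150 min acceptors were at 1460, 1350, 1620 and 2560 CPM against 840, 925, 894 and 409, without overlap. This was the only member call without the block (1.19, standard error 0.26, edgeR adjusted p = 0.0369), and with it Cd14 rose by 1.15 (SE 0.23, adjusted p = 0.00235). Experiment 4 holds both the highest acceptor and the lowest untreated unit, and without it the values were 0.74 (edgeR adjusted p = 0.272) and, with the block, 0.73 (SE 0.21, adjusted p = 0.0486). Leaving out experiment 1, 2 or 3 also ended the call without the block (adjusted p = 0.234, 0.114 and 0.192). At 60 min acceptors were at 1370, 1240, 1540 and 1380 CPM, called with the block only (0.83, SE 0.23, adjusted p = 0.0319), and without each experiment in turn the blocked adjusted p was between 0.0679 and 0.121.

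Tlr2 in acceptors was at 107, 72.5, 169 and 254.4 CPM at 150 min, above each untreated unit of the same number, with overlap between groups. It was called with the block (1.01, SE 0.25, adjusted p = 0.0119) and not without (1.04, standard error 0.42, edgeR adjusted p = 0.459). Without experiment 4 the blocked value was 0.41 (SE 0.14, adjusted p = 0.112), and without experiment 3 it was 1.15 (SE 0.32, adjusted p = 0.0625).

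Tlr1 and Tlr3 lay lower in acceptors. Tlr1 was under the untreated unit of its experiment in 20 of 22 pairs (median -0.82), and Tlr3, the receptor for double-stranded RNA, in 19 of 22 (median -0.54). Neither was called by edgeR over all groups, with or without the block. At 15 min Tlr3 was at 10.9, 18.2, 14.0 and 7.15 CPM (with the block -0.94, SE 0.28, adjusted p = 0.0569). Without experiment 4 the blocked fit called Tlr3 lower at 0, 15, 60 and 150 min, with log2 fold changes of -1.08, -1.06, -0.85 and -0.94 (adjusted p = 0.0111, 0.0185, 0.0441 and 0.0249), and Tlr1 at 30 and 60 min (-0.87 and -0.91, adjusted p = 0.0354 and 0.0383). Blocked DESeq2 called Tlr3 lower at 15 min (-0.96, adjusted p = 0.0242), and blocked fits of only the groups compared called Tlr1 lower at 30 and 60 min (-0.93 and -0.96, adjusted p = 0.033 and 0.0238). Experiment 2 had the highest untreated units of both genes, 58.7 CPM for Tlr3 and 48.9 for Tlr1. Tlr7 lay under the untreated unit in 19 of 22 pairs (median -0.24) and was not called.

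In these 6 comparisons, from 0 to 300 min, the members called without the block were 0, 0, 0, 0, 1 and 0 of 10, and the shares of all genes 0, 0, 0.114, 0.0683, 0.137 and 0%. With the block they were 0, 0, 0, 1, 2 and 0 of 10, and the shares 0.995, 2.25, 3.6, 4, 4.78 and 0.623%. Markers moved here too: with the block Olig1, a transcription factor gene of the oligodendrocyte lineage, was lower in acceptors at 30, 60 and 150 min, and 1 or 2 of 6 astrocyte markers at 15, 30, 60 and 150 min. Summed oligodendrocyte-lineage markers were 196 CPM (median) in untreated units and 99.1 in acceptors. The part of these cells in the receptor values was not tested.

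Donors were compared with aSyn-treated cells that had not been co-cultured, 6 comparisons that share the 4 aSyn-treated units. No member was called at any time in either fit. The shares of all genes called were 0, 0, 0, 0, 0 and 0.0304% from 0 to 300 min, and with the block 0, 0, 0, 0, 0 and 0.304%. Unadjusted edgeR p-values were under 0.05 for 0 members without the block and for 1 with it, Tlr2 at 300 min. DESeq2 called 0 as well. Tlr2 donors at 300 min were at 75.6, 52.7, 149 and 61.0 CPM against 145, 93.5, 157 and 95.3, lower in 4 of 4 experiments (with the block -0.62, SE 0.24, adjusted p = 0.409). It was called with the block without experiment 4 (-0.62, adjusted p = 0.0261) and in the blocked fit of only the groups compared (-0.62, adjusted p = 0.0283). Tlr1 at 300 min was higher in 4 of 4 experiments, by 0.17 to 0.90 on the log2 scale, and was called only in the blocked fit of only the groups compared (0.61, adjusted p = 0.0182).

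Over co-culture time, F tests across the 6 donor groups, the 6 acceptor groups and the difference between them called 0 members with or without the block. The shares of all genes called were 0.0607, 0.00759 and 0%, and with the block 0.577, 0.137 and 0.0456%. Tlr2 had the smallest blocked p-values of the family, 0.0109, 0.00615 and 0.000913 before adjustment and 0.367, 0.397 and 0.389 after. Without experiment 4 the blocked fit called Tlr2 over time in donors (adjusted p = 0.00254). The blocked fit of only the donor groups called both Tlr1 (adjusted p = 1.42e-05) and Tlr2 (adjusted p = 3.45e-05) over time, and blocked DESeq2 called Tlr2 for the difference between donors and acceptors over time (adjusted p = 0.0491).

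Of the other members, Tlr4, Tlr13 and Tlr7 varied little between groups. Ly96 group means ranged 1.84-fold and those of Tlr3 2.08-fold, with 43.2 and 28.8% of their variance between groups. Tlr4 group means ranged 1.10-fold, from 127 ± 23.3 CPM (n = 3) to 140 ± 18.4 (n = 4), and the group accounted for 5.35% of its variance. Tlr13 ranged 1.21-fold and Tlr7 1.43-fold, with 42.1 and 62.2% of their variance between experiments. Tlr7 averaged 97.7 CPM in experiment 4 and 150 to 154 in the others, whereas Tlr13 averaged 178 in experiment 4 and 140 to 148 in the others. Tlr9 group means lay between 0.255 and 0.636 CPM with units at 0, and its groups were not separable at this depth.

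**Figure D4:**
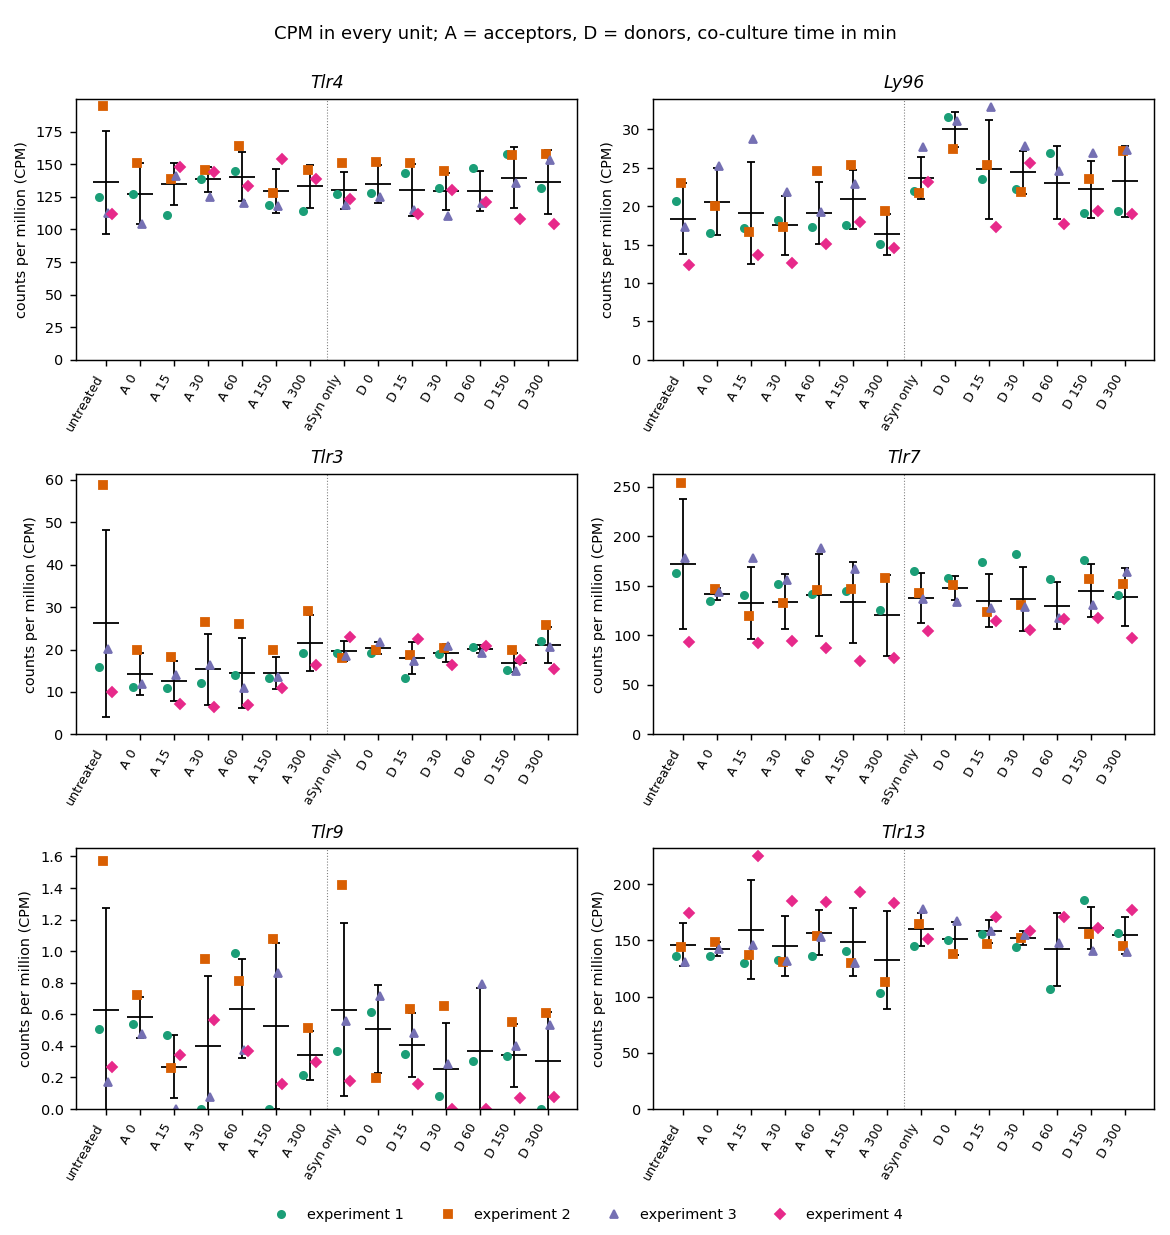
CPM of Tlr4, Ly96, Tlr3, Tlr7, Tlr9 and Tlr13 in every unit (vertical axis) by group (horizontal axis), with the symbol giving the experiment and the lines the mean ± SD, cut at 0. Tlr4 means stay between 127 and 140 CPM, Ly96 and Tlr3 acceptor units lie mostly under donor units, and experiment 4 is set apart in Tlr7 (low) and Tlr13 (high).

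As a description, log2 CPM was correlated between genes over the 52 units after the mean of each experiment was subtracted. The units share groups, experiments and library depth, so the values carry no test. Tlr1 and Tlr6 had r = 0.86, Tlr1 and Tlr3 0.67, and Tlr2 and Cd14 0.65, whereas Tlr1 and Tlr2 had 0.09 and Tlr4 and Cd14 0.06. Among the genes closest to Tlr1 were Sla (0.95) and Gas7 (0.94), and closest to Tlr6 were Fam114a1 (0.89), Nod1 (0.86) and Tlr1. Closest to Tlr2 were Nlrp3 (0.85), Skil (0.84) and Relb (0.84), and to Cd14 Bcl3 (0.78), Ankrd50 (0.78) and Trem1 (0.77). Tlr3 was closest to the interferon-induced genes Ifit3 (0.93) and Ifit3b (0.92) and to Znfx1 (0.91). Ly96 was closest to Madd (0.77), Igsf6 (0.77) and Tnfrsf1b (0.76), and Tlr7 to Vps33a (0.74), Max (0.71) and Cnp (0.69). Weaker still were Tlr4 with Ptbp3 (0.65), Apoc1 (0.62) and Dnaja2 (0.60), and Tlr13 with Gaa (0.65), Kcnk13 (0.61) and Slc25a3 (0.61). For Tlr9, at counts near 0, the closest were Tmem160 (0.54), B3gnt7 (0.52) and Slc7a4 (0.50).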

How the data were processed

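RNA of 54 libraries was counted. The authors deposited raw counts per gene symbol and a normalized signal, named DESeq2 normalized data per the file headers. All values of this signal (100%) equalled the deposited counts divided by a median-of-ratios size factor within 0.051, and it was used for that check only. Per the submitters' processing notes STAR, Partek, DESeq2 and build mm10 were used. Versions, the counting rule, its use of strand and the annotation are not given in the sources used here. Tlr3 overlaps Gm45542 on the opposite strand, so reads of the pair might not be told apart.

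Groups came from the labels. Untreated libraries with the same number (2 pairs) differed by more than sampling noise, with a chi-square per degree of freedom of 10.3 and 12.1. Other untreated pairs differed more, at 24.2 to 288. The same-numbered libraries were summed, which leaves 52 units. Counts were tested with edgeR 4.0.16 (R 4.3.3), with TMM scaling, filterByExpr at a minimum count of 10, a quasi-likelihood fit over 14 groups, and Benjamini-Hochberg adjustment over 13169 genes. DESeq2 1.42.0 was an alternative. Adjusted p-values are edgeR's unless another tool is named. CPM used TMM-scaled totals. The prior count of log2 CPM was 2. Standard errors were derived from the quasi-likelihood F statistic. Tests were run on simulated data first.

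The experiment number in the titles pairs the units: same-numbered units deviated together from their group means, with mean r from 0.34 to 0.59 over 19 comparisons and 0.2 for the lowest single pair.

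The 10 genes, the pathway and marker lists and the naming rule were chosen with earlier results of these data known. The rule names the 10 genes, from each pathway list up to 5 genes called with aSyn without the block, or else the gene with the smallest p, and the 3 genes most correlated with each member. Other pathway genes and all markers were named after their values were seen. Some genes that these rules or lists hold are not reported here. Gene positions come from GENCODE M21 and promoters from RefSeq, where 6 of the 9 members looked up had an entry. Alternatives were other scaling, tools, filters, samples and blocks.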

Additional observations from a re-analysis of the deposited data

Results flagged for a closer look

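In 100 groups of 4 units, 8 had a value set far from the other 3 by the gap between it and its nearest neighbour, against about 5% that chance gives. Untreated cells of experiment 2 were high in Tlr1 (48.9 CPM, the other 3 from 17.5 to 22.3) and Tlr4 (195, the others 112 to 125). Acceptors of experiment 2 were high in Tlr1 at 30 min (29.8 CPM, others 8.50 to 10.4) and in Tlr6 at 150 min (7.39, others 3.05 to 3.55). Cd14 was low in untreated cells of experiment 4 (409 CPM, others 840 to 925) and high in donors of experiment 3 at 30 min (1915, others 1150 to 1270). Tlr13 was high in acceptors of experiment 4 at 15 min (224.6 CPM, others 130 to 146) and 30 min (185, others 131 to 133). Of these 8 values, 4 are from experiment 2, which the labels give as passage 1.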

How the results depend on the processing

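Counts of member calls moved with the replicate block, with the replicates left out and with the samples in the fit. For aSyn-treated against untreated cells the count was 0, and 1 with DESeq2 or with all 54 libraries separate (Cd14 in both), and 2 with the block. With the block it was 1, 2 and 4 without replicates 4, 1 and 2, 0 without replicate 3, 2 in DESeq2 and 0 with only the groups compared. For donors against aSyn-treated cells it was 0, and 1 with the block without replicate 4 and 2 with the block in fits of only the groups compared. For acceptors against untreated cells it was 1, and 0 without the low-count filter, in fits of only the groups compared and without any single replicate (lowest 0, highest 0). With the block it was 3, 7 without replicate 4, 2 without replicate 1 or 2, 1 without replicate 3, 5 in DESeq2 and 2 with only the groups compared. For donors against acceptors it was 0, 1 with DESeq2 (Tlr6 at 60 min) and 10 with the block. With the block it was 11, 4, 9 and 5 without replicates 4, 1, 2 and 3, 15 in DESeq2 and 1 with only the groups compared. For change over time it was 0, and with the block 1 without replicate 4, 1 in DESeq2 and 2 with only the groups compared. The cause of these shifts was not tested. The share of all genes called moved with the block too, from 2.5% without it to 19.2% with it for aSyn-treated against untreated cells. Shares of all genes in the other settings are not given here, so these shifts cannot be read as particular to the 10 genes. Blocked fits without replicate 1, 2 or 3, in DESeq2 or on only the groups compared were chosen after seeing the data.

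The sign of 3 uncalled log2 fold changes with aSyn turned. Tlr4 ran from -0.12 to 0.10 and Tlr3 from -0.77 to 0.42 with single replicates left out, and with the block without replicate 2 they were 0.10 and 0.47. Tlr9 ran from -0.25 to 0.27, was 0.001 without Rn45s, and with the block was 0.087, 0.104 and 0.102 without replicates 4, 1 and 2. With plain library totals 138 of 140 group means of CPM moved by less than 1 SD. Depth limits Tlr9 most, with 0 to 36 counts a unit, and Tlr6, with 32 to 208.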

Other observations

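Of the Toll-like receptor genes outside the 10, Tlr8, an endosomal receptor, was present in every library (227 to 809 counts, median 35.8 CPM). Tlr5, the flagellin receptor, had 26 counts in all and 0 in 45 libraries, and Tlr11 21 counts and 0 in 46. Both were under the filter on low counts.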
